A study of Mus musculus with 16 samples.

Results

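Renca is a kidney carcinoma line of the Balb/C mouse strain, used as a transplantable model of renal cancer. It is the only line of renal origin in a set of 16 arrays of mouse tumour lines, and it was chosen by its cell line label: 1 array of 16. The array is of genomic DNA from 1 in vitro sample of the line, labelled female, and no treatment is given. CT26 (colon) and 4T1 (breast) are the other Balb/C lines, also labelled female and with 1 array each, and they were used to set variants of the strain apart from changes of the tumour. The other 13 arrays carry 12 C57BI6 lines or sublines and P815, a DBA/2 line. On every array the line's DNA carried Cy5 and a commercial mouse genomic DNA carried Cy3, so a positive log2 ratio is a relative gain of the line over that DNA.

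Comparative genomic hybridisation measures how much DNA a genome holds at each probe relative to a common DNA. A tumour genome is commonly a mosaic of whole chromosomes, chromosome arms and short stretches that have been gained or lost, and a boundary between 2 levels marks a break in the chromosome. Since ratios are relative, the method gives neither ploidy nor an absolute copy number. Inbred strains also differ from each other by inherited deletions and duplications, which appear on such an array as short, deep or high stretches shared by lines of 1 strain. In human kidney cancer, loss of VHL, which marks hypoxia-inducible factors for degradation, and of the chromatin genes PBRM1, BAP1 and SETD2 is well known.

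The profile rests on 220668 autosomal probes at a median spacing of 7827 bp. Renca had the lowest noise between neighbouring probes of all arrays, 0.22 in log2, where the arrays ranged from 0.22 to 0.41. Its line channel was well above background for 99.6% of probes. With 1 array there is no replicate: each error below is the standard error (SE) over the probes of a segment, so it covers probe noise and leaves out how much separate cultures of the line might differ. All positions are those of mm8, the mouse build that the file headers name.

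The first comparison asked how much of the autosomes was altered. Segments with a mean log2 ratio at or above 0.3 (gains) held 8.61% of the autosomal probes of Renca, and segments at or below -0.3 (losses) held 30.2%. At this threshold losses covered more of the Renca genome than gains, as in 4 of the other 15 arrays, while the other 11 had more gained than lost. At a threshold of 0.5 the order turned, with 6.54% gained and 5.86% lost in Renca. The gained share of the other 15 arrays ran from 4.44% in EL4 to 19.3% in PAN02, with a median of 12.98%. Their lost share ran from 2.06% in PAN02 to 20.8% in B16F10 NCI, with a median of 8.94%. Renca lost more of its autosomes than any of the other 15 arrays and ranked 14 of 16 for gains. CT26 had 12.1% gained and 4.11% lost, and 4T1 had 9.26% gained and 8.94% lost.

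The altered share as a whole was 38.8% in Renca, against 16.2% in CT26, 18.2% in 4T1 and a mean of 20.1% ± 6.66 over the 11 other families (SD; the 4 B16 arrays and the 2 TRAMPC arrays each count as 1 family). An exact two-sided permutation test over the 12 families gave p = 0.0833, which is the smallest p that 12 families allow, so this design cannot pass 0.05. Centring by the mode of the probes gave 7.38% gained and 37.9% lost, and background correction by normexp gave 18.99% gained and 34.6% lost.

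**Figure D1:**
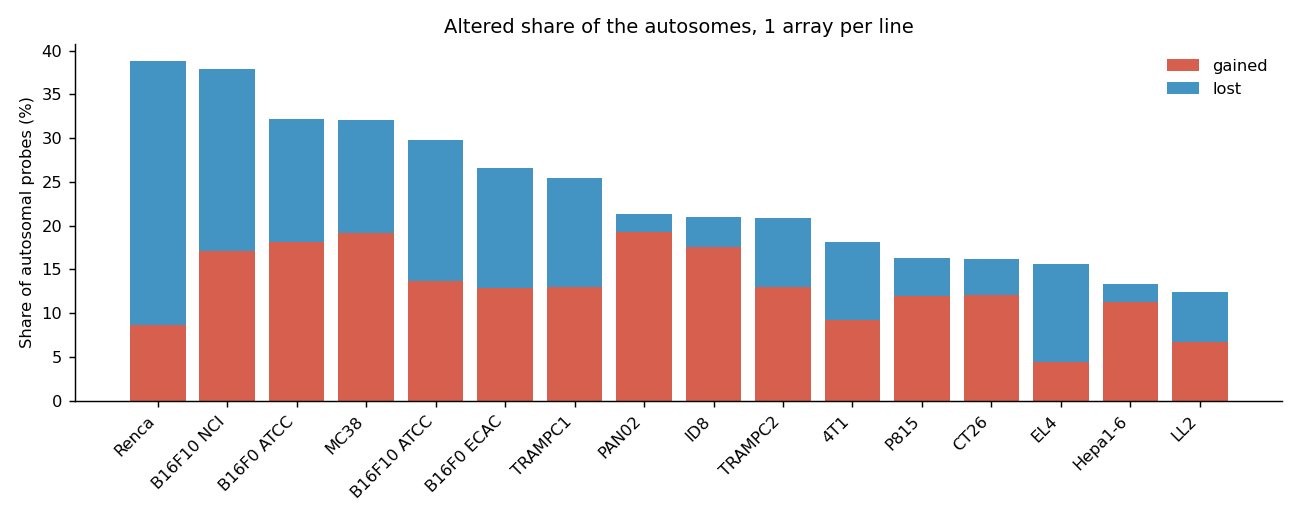
Share of autosomal probes (%) in gained and lost segments, stacked, for each of the 16 arrays, with Renca at the left and the others in falling order of their sum. Renca has 30.2% lost, against at most 20.8% in the other arrays.

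The alterations of Renca were mostly long: segments of 5 Mb or more held 150 of the 193 Mb gained and 627 of the 756 Mb lost. Some covered nearly a whole chromosome and others a part of 1. Chromosomes 9 and 13 were low along nearly all their length, with 91.5% and 98.4% of their probes in lost segments, and chromosome 16 was high in 98.7% of its probes. The median log2 ratio of chromosome 16 was 0.52 in Renca, against -0.23 in CT26 and -0.11 in 4T1, and the highest median among the other 15 arrays was 0.24. Renca lay above every other array on this chromosome. The median of chromosome 13 was -0.39 in Renca, against -0.05 in CT26 and -0.21 in 4T1. The median of chromosome 9 was -0.36 in Renca, against -0.23 in CT26 and 0.12 in 4T1. Chromosome 5 had a median of -0.35 in Renca, against 0.24 in CT26 and 0.08 in 4T1, and Renca was the lowest of the 16 arrays. Renca was also the lowest array on chromosomes 9, 13 and 19, and on chromosome 19 its median was -0.33, against -0.01 in CT26 and 0.28 in 4T1.

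Each of the 19 autosomes was tested over the 12 families with the same exact permutation test. Renca was the family farthest from the mean of the others on 4 of them: chromosomes 5, 9, 13 and 16. For these the exact permutation p was 0.0833, and 0.396 after Benjamini-Hochberg adjustment over the 19. None of the 19 passed an adjusted p of 0.05 (0%), which the number of families does not allow.

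**Figure D2:**
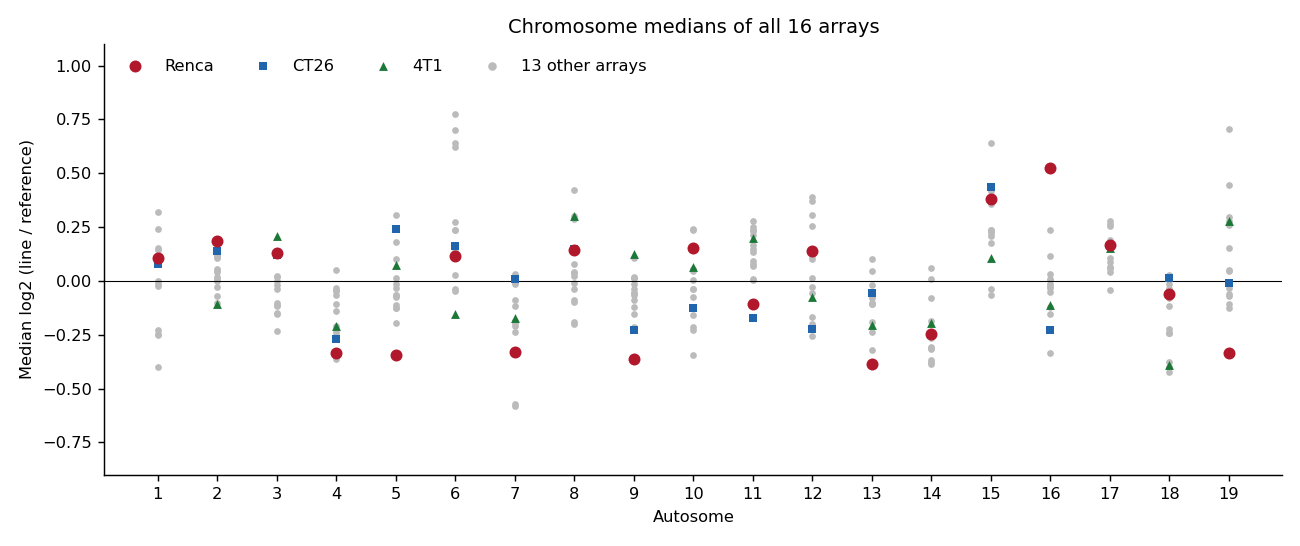
Median log2 ratio of each autosome for Renca (red circles), CT26 (blue squares), 4T1 (green triangles) and the 13 other arrays (grey). Chromosome 16 of Renca, at 0.52, lies above every other array, and chromosomes 5, 9, 13 and 19 lie below every other array.

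Along the genome, Renca ratios fell on a few separate levels. The levels were read from a profile from which, at each probe, the median over the other families of the deviation from the chromosome median had been subtracted; it is called the profile with shared probe effects subtracted. That profile had 227 autosomal segments, against 375 as measured. Segments of at least 20 probes then gathered at 5 peaks. The most common level, called the base, had a mean of 0.12 and held 53.6% of the autosomal probes. The level below it had a mean of -0.39 and held 37.2%. The level above it had a mean of 0.52 and held 8.06%, and the highest had a mean of 1.18 and held 0.502%. The highest level had 3 segments. Of these, chr15:3091692-14725943 held 1021 probes and stood at 1.19, against 0.34 in CT26 and 0.36 in 4T1. Its segments chr12:115933571-116132724 and chr17:30176354-30650272 were at 1.31 and 0.94 in Renca. They were high in CT26 too, at 1.08 and 1.00, and in 4T1, at 1.47 and 0.95. A small group of segments at -1.48 ± 0.71 (SD of the means of 8 segments, weighted by probes) held 0.320%. It includes chr4:111629720-112104237, which stood at -0.58 as measured. Without this segment, the only one of the 8 that the subtraction moved by more than 1, the other 7 had a mean of -1.31 ± 0.06 (SD), and as measured this level stood at -1.32 ± 0.16 (SD). With neighbouring segments joined, the level made up 7 stretches, of which 3 were below -0.3 in CT26 and 4T1 too. They were the one on chromosome 4 just named, chr7:9629430-10575521 (Renca -1.34, CT26 -0.59, 4T1 -1.10) and chr13:119134861-120606215 (-1.39, -0.31 and -0.38). The lowest level is listed because the smallest share that counts as a level was set to 0.2% of probes after the levels had been seen; with 0.4% its segments merge into the next level, whose mean becomes -0.40.

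Relative to the base, the lower level had a ratio of 0.705 and the upper level a ratio of 1.33. In the profile as measured the ratios were 0.695 and 1.36. Loss of 1 copy from a base of 3 would give 0.667 and gain of 1 copy 1.33. From a base of 2 the same changes would give 0.5 and 1.5, and from a base of 4 they would give 0.75 and 1.25. The highest level, of which most probes lie at the start of chromosome 15, had a ratio of 2.09 to the base. These are arithmetic values for comparison: ploidy was not measured, and array ratios are commonly compressed. The base lay above 0 because the centre of the array is the median probe, which falls between the 2 most common levels.

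**Figure D3:**
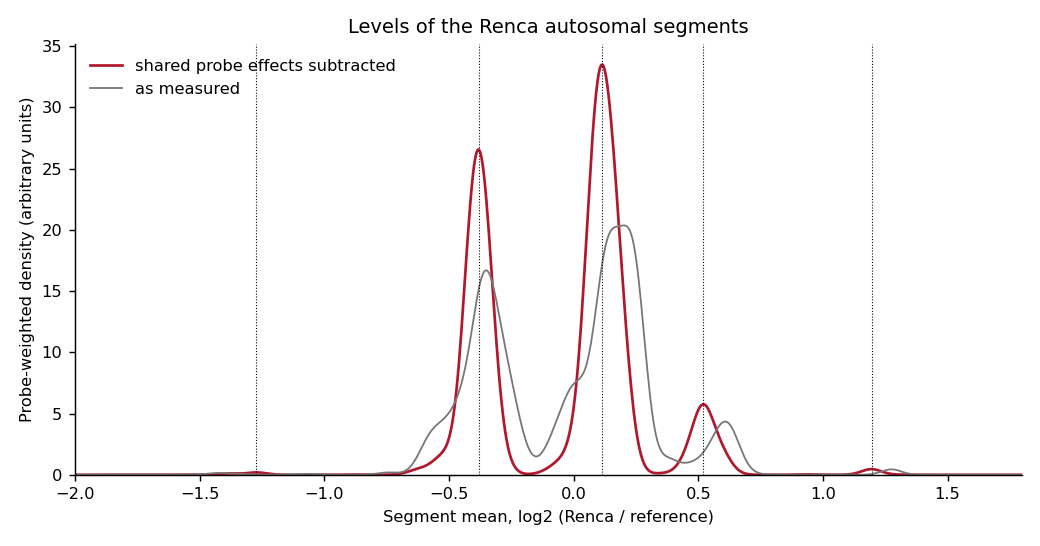
Probe-weighted density (arbitrary units) of the mean log2 ratio of Renca autosomal segments of at least 20 probes, with shared probe effects subtracted (red) and as measured (grey). Dotted lines mark the peaks, of which the 2 highest are the base at 0.12 and the level below it at -0.38.

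In the same profile, neighbouring segments of 1 level joined into 72 blocks, and the values of this and the next paragraph are from it. The base level made up 28 blocks over 1310 Mb, the level below it 25 blocks over 887 Mb and the level above it 9 blocks over 181 Mb. On chromosomes 9, 10 and 19 all blocks were of 1 level: chromosomes 9 and 19 at the lower level, and chromosome 10 at the base. The longest block of the lower level was chr7:10581909-136878488, with a mean of -0.38 ± 0.003 (SE, 11806 probes). The end of chromosome 7 beyond it, chr7:136894310-145131345, was at the base with 0.05 ± 0.007 (SE, 1043 probes).

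Several chromosomes changed level once or a few times along their length. Chromosome 14 was gained over chr14:3892581-46213177 at 0.51 and lost over chr14:46218674-123948262 at -0.43. CT26 stood at -0.27 and -0.26 over the same 2 stretches and 4T1 at -0.24 and -0.19, with no such step. Chromosome 11 was lost up to position 77332671, with 1 deeper stretch inside, and at the base from 77336864 to its end. Chromosome 18 was at the base over chr18:3181133-58135268 with 0.09 and lost over chr18:58148752-90727455 with -0.42. Chromosome 4 was lost up to position 134217999, and chromosome 5 up to position 135351903, apart from short stretches. Chromosome 2 was at the base except for a gain over chr2:151977045-167417489, with 0.51 ± 0.008 (SE, 1800 probes), where CT26 stood at 0.14 and 4T1 at -0.20. Chromosome 1 was at the base up to 177737606, apart from 1 short loss, and lost over chr1:177745409-192154896 at -0.35.

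Chromosome 15 held the highest long stretch of the genome. As measured, chr15:3091692-13646427 had a mean of 1.27 ± 0.008 (SE, 984 probes), a ratio of 2.42 to the reference DNA. The same probes averaged 0.45 in CT26 and 0.45 in 4T1, and from -0.35 to 0.78 over the other 13 arrays. Renca was therefore higher there than each of the other 15 arrays, while both Balb/C lines were also above 0. Beyond the step at 14725943 the chromosome was at the base, and it was gained again over chr15:76080002-91874166 at 0.59 and over chr15:93425232-103482674 at 0.60. In the distal stretch CT26 stood at 0.53 and 4T1 at -0.34.

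**Figure D4:**
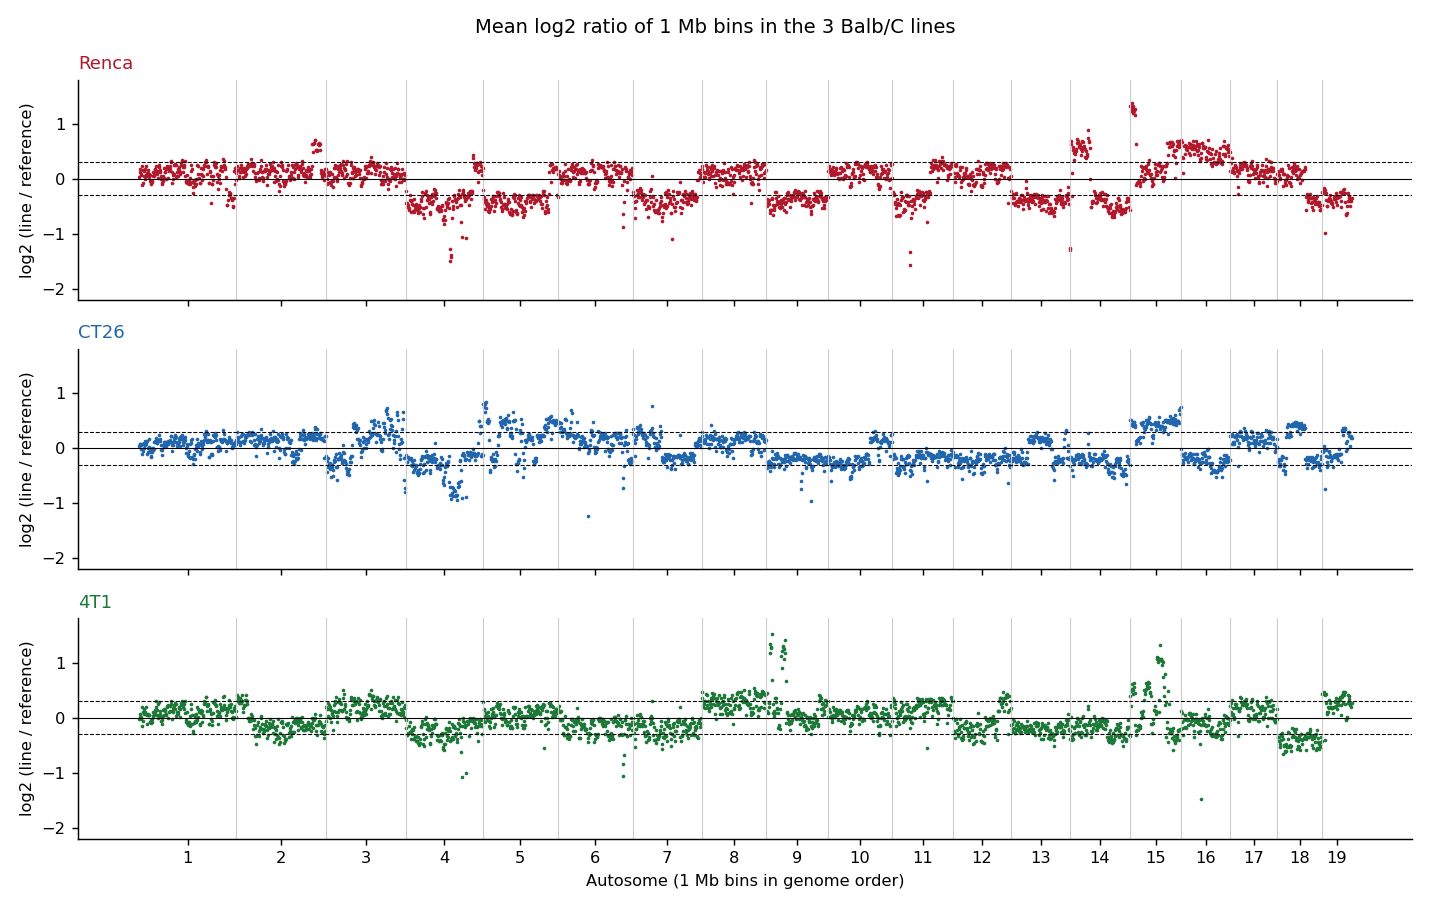
Mean log2 ratio of 1 Mb bins along the autosomes, in genome order, for Renca (top), CT26 (middle) and 4T1 (bottom), with dashed lines at 0.3 and -0.3. Renca shows long flat stretches at a few levels, with chromosome 16 high, chromosomes 9, 13 and 19 low, and the start of chromosome 15 above 1.

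Among segments of 5 Mb or more as measured, 12 were gains and 44 were losses. The longest gain was chr16:8183511-36162759 at 0.58 ± 0.005 (SE), where CT26 stood at -0.17 and 4T1 at -0.04. The longest loss was chr9:41327245-80835623 at -0.31 ± 0.004 (SE), where CT26 stood at -0.20 and 4T1 at 0.02. The lowest of these segments was chr4:75211022-80650467 at -0.74 ± 0.03 (SE), where CT26 stood at -0.56 and 4T1 at -0.52. The other 15 arrays ran from -0.56 to -0.06 there, with a median of -0.35, so every array was below 0.

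Bins of 1 Mb gave the same comparison without segments. Of 2386 bins, 224 (9.39%) were at least 0.3 higher in Renca than in both CT26 and 4T1, and 181 (7.59%) were at least 0.3 lower than in both. All 96 bins of chromosome 16 were higher than in both lines. Of the higher bins, 38 lay on chromosome 14 and 37 on chromosome 12, where the chromosome median was -0.22 in CT26 and -0.08 in 4T1. Of the lower bins, 100 of the 147 bins of chromosome 5 and 23 of the 59 bins of chromosome 19 were lower than in both. With each array centred on the mode of its probes, 143 bins were higher and 690 lower. With normexp, 214 were higher and 383 lower. With a threshold of 0.2, 299 were higher and 394 lower, so the order of the counts turned under each of these settings. Of the 707 bins at or below -0.3 in Renca, 163 were also past that value in CT26, 173 were in 4T1, and 462 were in neither. CT26 and 4T1 are tumours too, so a bin low in all 3 lines can be a strain variant or a loss in each.

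Short changes were counted as segments under 5 Mb. Of 216 such autosomal segments of Renca, 125 (57.9%) had a mean at or past 0.3 in size. With shared probe effects subtracted there were 109. Set against CT26 and 4T1 over the same probes, 43 were shared with both lines, 9 with 1 line and 73 with neither. A line counted as sharing only if it also stood 0.3 beyond its own flanks, so the 73 include stretches where both lines were past 0.3. An example is chr14:122494574-123948262, at -0.58 in Renca, -0.33 in CT26 and -0.36 in 4T1. The 73 had a median length of 2472 kb. Of the 73, 17 were gains and 56 losses, and 25 stood at least 0.3 beyond both neighbouring segments (5 gains and 20 losses). Of the 43 shared with both lines, 37 stood apart in that way, with a median length of 79.0 kb, against 244 kb for the 25 of Renca alone.

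Deep deletions found in Renca and not in CT26 or 4T1 were few. The lowest was chr7:87564205-87679670, with a mean of -4.45 ± 0.24 (SE, 12 probes), against -0.33 in CT26 and -0.37 in 4T1, and from -0.86 to 0.08 over the other 13 arrays. All 12 probes lay below -2, from -5.98 to -3.27, while the 3 probes on each side lay between -0.85 and -0.38. The change was complete from 1 probe to the next on both sides. In 8 of the 12 probes the Renca signal was not well above background, so the fold is a bound: with those signals set to at least the lowest signal well above background, Renca was at least 16.6-fold lower than the reference DNA.

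The deletion on chromosome 14, chr14:9110445-9230122, had a mean of -4.27 ± 0.42 (SE, 16 probes), against -0.44 in CT26 and -0.45 in 4T1. Of its 16 probes 14 lay below -2, and the other 2, at -1.22 and -0.82, lay between deleted neighbours. It was at least 13.5-fold lower than the reference DNA, with 10 probes not well above background. The deletion was bordered by chr14:8358471-8927780 at -0.46 ± 0.09 (SE, 8 probes) and by chr14:9236275-9279252 at -0.65 ± 0.08 (SE, 5 probes), and CT26 and 4T1 stood between -0.40 and -0.32 over these 2 borders. Beyond them the chromosome was gained on both sides, at 0.64 and 0.48, so the deletion lay in a short low stretch that interrupts the gain.

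A deletion at chr7:46875178-46906571 had a mean of -3.94 ± 0.35 (SE, 6 probes), against 0.39 in CT26 and 0.04 in 4T1, and was at least 13.9-fold lower than the reference DNA. All 6 probes lay below -2. On chromosome 17, chr17:24304282-24330307 had a mean of -4.08 ± 0.99 (SE, 5 probes), against 0.50 in CT26 and 0.56 in 4T1. It was stepped: the first 2 probes lay at -1.57 and -1.84 and the next 3 from -6.16 to -4.99. On chromosome 4, chr4:8133042-8198222 had a mean of -2.13 ± 0.51 (SE, 8 probes), against -0.24 in CT26 and -0.23 in 4T1. Here 2 probes at -4.95 and -3.84 lay within 6 probes between -1.64 and -1.12, so a deep loss was nested in a shallower one. On chromosome 12, chr12:41987123-42022126 had a mean of -2.39 ± 1.09 (SE, 5 probes), with its first 2 probes near 0 at -0.25 and -0.06 and the other 3 from -5.94 to -2.30. Among the other 13 arrays the lowest reached -4.53 over the same probes, so a low value there was not limited to Renca.

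**Figure D5:**
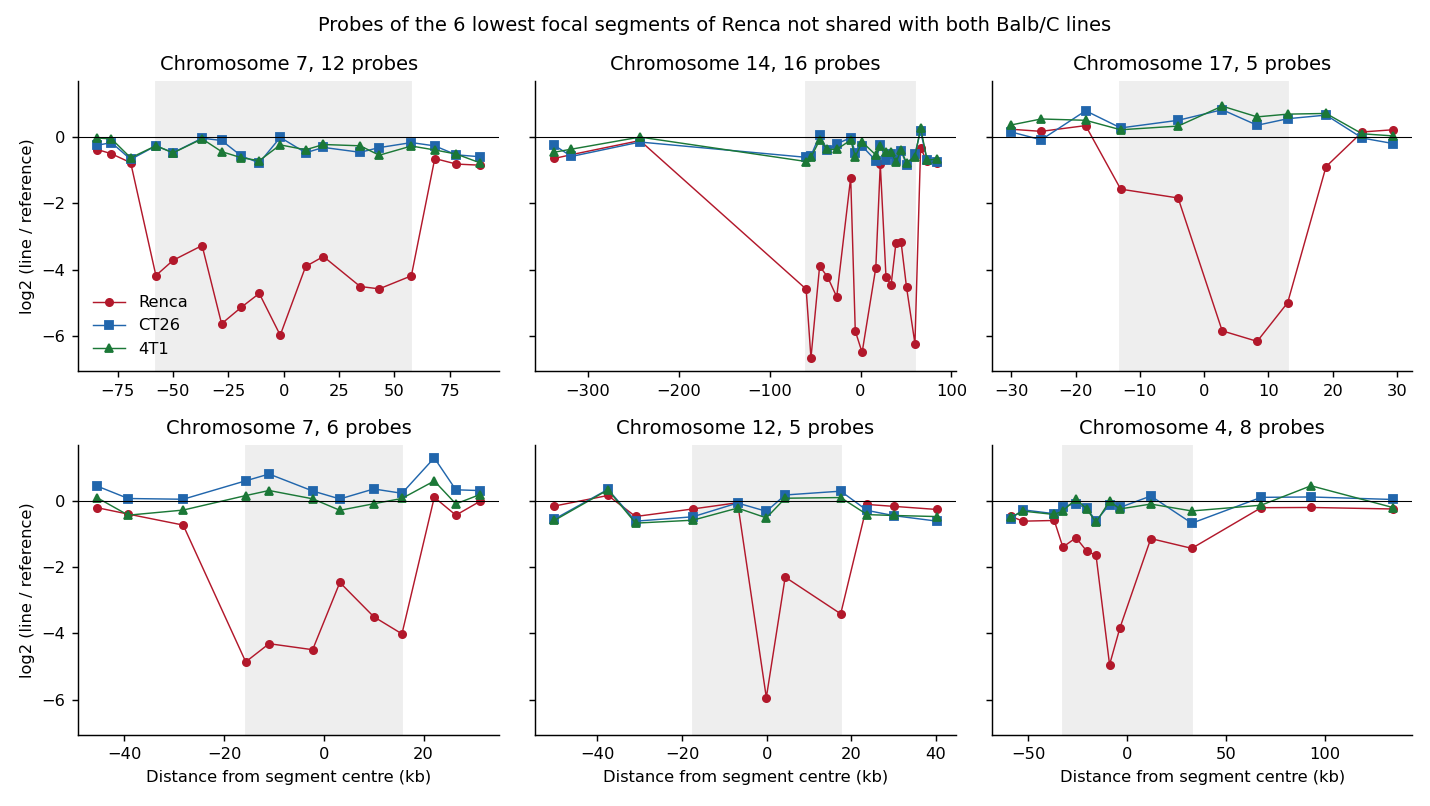
Log2 ratio of single probes against distance from the segment centre (kb) for the 6 lowest focal segments of Renca not shared with both Balb/C lines, with 3 probes on each side, in Renca (red), CT26 (blue) and 4T1 (green). Grey marks the segment; inside it Renca falls to -6.66 at the lowest probe while CT26 and 4T1 stay between -0.83 and 0.93.

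A second kind of focal loss lay between -1 and -1.6, the range of the small level below the long losses. The longest was chr4:89554257-93262782, with a mean of -1.43 ± 0.02 (SE, 317 probes), against -0.86 in CT26 and -0.40 in 4T1, preceded by chr4:88485369-89520467 at -1.09 ± 0.05 (SE, 63 probes), where CT26 stood at -1.09 and 4T1 at -0.45. On chromosome 11, chr11:37167253-39083125 had a mean of -1.56 ± 0.04 (SE, 63 probes), against -0.41 in CT26 and -0.09 in 4T1. The end of chromosome 13, chr13:119134861-120606215, stood at -1.34 ± 0.03 (SE, 148 probes), against -0.27 in CT26 and -0.34 in 4T1. Chromosome 5 held 3 such losses, at chr5:36734748-36827958 (-1.18 ± 0.07, SE, 14 probes), chr5:120395702-120611057 (-1.32 ± 0.05, SE, 19 probes) and chr5:121644514-121888954 (-1.20 ± 0.06, SE, 39 probes). CT26 stood at 0.55, 0.18 and 0.16 over these 3 and 4T1 at 0.20, 0.05 and 0.20. All 3 lie within the long loss of chromosome 5. On chromosome 8, a pair of losses at chr8:117749479-117832175 (-1.53 ± 0.05, SE) and chr8:117949787-118002683 (-1.51 ± 0.05, SE) enclosed 16 probes at 0.03. This pair counts as shared with 1 Balb/C line: CT26 stood at -0.60 and -0.43 over the 2 losses and 4T1 at 0.17 and 0.08, and the lowest of the other 13 arrays stood at -1.63 and -0.69.

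Within the loss on chromosome 4 lay the only run of at least 5 adjacent autosomal probes at which the median of the other 15 arrays was below -2. Over these 8 probes, chr4:88738012-88776278, Renca had a mean of -1.16, against -4.83 in CT26 and -4.10 in 4T1, and 10 of the other 15 arrays were below -2. All 8 probes were well above background in Renca, with values from -1.77 to -0.07. Renca was low there, and less so than both other Balb/C lines.

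Focal gains of Renca alone were fewer. The highest was chr4:134221921-134393121, with a mean of 1.91 ± 0.21 (SE, 9 probes), against -0.08 in CT26 and -0.01 in 4T1, a ratio of 3.77 to the reference DNA. Its 9 probes lay from 1.58 to 3.55, and the highest probe was also high in CT26, at 1.86, and in 4T1, at 2.01. This gain begins where the long loss of chromosome 4 ends, and it was followed by chr4:134400691-134778877 at 0.75 ± 0.04 (SE), by 86 probes at 0.22 and by chr4:135338789-135676926 at 0.69 ± 0.04 (SE). CT26 and 4T1 stood between -0.18 and 0.05 over all of these.

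Of the 43 focal segments shared with both Balb/C lines, 33 had a Renca mean within 0.5 of that of CT26 and 38 within 0.5 of that of 4T1. The mean of Renca minus that of CT26 ran from -1.03 to 0.84, and minus that of 4T1 from -0.84 to 0.67. The lowest, chr11:116564047-116580851, stood at -5.02 in Renca, -5.42 in CT26 and -5.50 in 4T1, and from -5.71 to -1.52 over the other 13 arrays, so it was low on every array. At chr11:70987724-71109796 the means were -3.68 in Renca, -3.60 in CT26 and -3.70 in 4T1, and from -2.75 to 1.18 over the other 13 arrays. At chr19:9239304-9299188 they were -4.74 in Renca, -3.87 in CT26 and -4.26 in 4T1, while the other 13 arrays lay from -0.25 to 0.87. Others differed between the lines: chr16:44751270-44787399 stood at 1.70 in Renca, 0.86 in CT26 and 1.20 in 4T1, and from 0.84 to 1.82 over the other 13 arrays. At chr5:62046391-62093143 the means were 1.37 in Renca, 2.40 in CT26 and 2.04 in 4T1, and from 1.71 to 2.49 over the other 13 arrays. Both were thus high on every array. With shared probe effects subtracted the Renca means were 0.47 and -0.63. The neighbouring Renca segments as measured stood at 0.62 and 0.57 on chromosome 16 and at -0.62 and -0.53 on chromosome 5. The highest, chr3:91238803-91307734, stood at 1.95 in Renca, 2.06 in CT26 and 2.00 in 4T1, and from 1.53 to 2.35 over the other 13 arrays, so it was high on every array.

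Breakpoints were counted where 2 segments of at least 20 probes met with a step of at least 0.3. Renca had 82, of which 15 lay within 200 kb of a segment boundary of CT26 or 4T1; 4.73% of all autosomal probes lie that near to such a boundary. With shared probe effects subtracted there were 46, of which 12 were shared and 34 were not. Of these 34, 8 were on chromosome 5, 5 on chromosome 1 and 4 on chromosome 15. The penalty for a boundary rises with the noise of the array, which as measured was 0.22 in Renca, 0.36 in CT26 and 0.32 in 4T1. A step of the same size is thus found less readily in CT26 and 4T1, so the counts not shared can be too high. As measured, CT26 had 179 autosomal segments and 4T1 229, against 375 in Renca. The largest step as measured was at chr16:6559317-6567937, where the mean after the step minus that before it was 1.23 ± 0.09 (SE). The 20 probes before it were a short loss at -0.84 within the gained chromosome 16. Without CT26 as a comparison 14 of the 82 were shared, and without 4T1 8 were. A long step was that between chr14:46218733-46223146, where the mean dropped by 1.05 ± 0.03 (SE) along the chromosome, and no boundary of CT26 or 4T1 lay near it.

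The X chromosome changed level within Renca. Segments of at least 20 probes before position 147180914 had means from -1.51 to -1.03, and the stretch chrX:147188157-165310305 had a mean of -0.36 ± 0.006 (SE, 1733 probes). The median of the probes after this boundary minus that of the probes before it was 0.94 in Renca, against 0.06 in CT26 and 0.01 in 4T1, and from -0.79 to 0.45 over the other 15 arrays. The boundary was taken from the Renca segments, and that choice favours a large step in Renca at this position. Steps at other positions of the X chromosome were not compared between the arrays. The median over the Y probes was -0.80 in Renca, against -0.68 in CT26 and -0.72 in 4T1, and 35.8% of Y probes were well above background in Renca. TRAMPC1 and TRAMPC2 had Y medians of 3.13 and 3.14, with 99.7% of Y probes well above background in each. On the remaining arrays that share ran from 24.3% to 40.6%, so Renca lay within their range.

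Genes could be placed only by chromosome, because the array files hold no gene names and the positions of the gene table are of another build, GRCm38. A gene was given a call only where at least 90% of the probes of its chromosome had 1 call, which with shared probe effects subtracted holds for 12 of the 19 autosomes: 4 lost (7, 9, 13 and 19), 1 gained (16) and 7 neither. Of 20665 autosomal protein-coding genes in the gene table, 3.29% lie on the gained chromosome, 23.1% on the lost ones and 34.3% on those called neither. Of 32 kidney tumour genes, 30 are autosomal. Setd2, a histone H3 methyltransferase, lies on lost chromosome 9, and Tert, the catalytic part of telomerase, on lost chromosome 13. Chromosome 6, which holds Vhl, Met and Mitf, was neither gained nor lost in at least 90% of its probes. A further 16 lie on chromosomes with several levels, among them Pbrm1 and Bap1 on chromosome 14 and Trp53 on chromosome 11, and were not placed. No gene of this list lies on chromosome 16.

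Of 20 genes that matter to immune recognition, 6 lie on gained chromosome 16, which holds 3.29% of all genes: the interferon receptor genes Ifnar1, Ifnar2 and Ifngr2, the costimulatory ligands Cd80 and Cd86, and Cd47, a signal against phagocytosis. A further 5 of the 20 lie on lost chromosomes, which is near the 23.1% of all genes that lie there. They are Cd274 (PD-L1), Pdcd1lg2 (PD-L2) and the kinase gene Jak2 on chromosome 19 and Pvr and Nectin2 on chromosome 7. The 4 genes of antigen presentation on chromosome 17, Tap1, Tap2, H2-K1 and H2-D1, lie on a chromosome that was neither. As measured, chromosomes 7 and 19 were below the 90% share, with 64.9% and 70.9% of probes lost, so these 5 genes have no call there. Of 12 genes of the kidney lineage, 4 lie on lost chromosomes, where 23.1% of all genes lie: Pax2 and Emx2, which encode transcription factors of kidney development, on chromosome 19, Slc34a1, a phosphate transporter of the proximal tubule, on chromosome 13, and Umod, the uromodulin gene, on chromosome 7. As measured, only Slc34a1 of these 4 has a call, because chromosomes 7 and 19 were below the 90% share. These calls are of chromosomes, and expression was not analysed here.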

How the data were processed

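Genomic DNA of 16 mouse tumour lines was hybridised on 2-colour arrays, 1 array per line, with the line in Cy5 and a commercial mouse DNA in Cy3, per the labels. Agilent Feature Extraction 10.7.3.1 made the deposited intensity values by background subtraction and a linear dye factor without lowess, on build mm8, per the file headers. For the deposited files, the log10 ratio of a spot equalled that of the processed signals for at least 99.9% of spots, and the deposited log2 value table differed from it by at most 5.1e-05. Flags for outliers and signal above background were deposited as 0 or 1.

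The values used were log2 of red over green, without control and outlier-flagged spots, with repeat spots averaged and each array centred on its autosomal median. An exact change point search (Python 3.11.15, numpy 2.4.6, numba 0.67.0) used a penalty of 6, multiplied by the squared noise and by the natural log of the count of autosomal probes, at least 5 probes per segment and probes limited to 3 noise SDs around a running median of 5; it was tested on simulated profiles. A focal segment was shared with a line whose mean passed 0.3 in the same direction, also relative to its own flanks. Alternatives included normexp (offset 50) with limma 3.58.1 in R 4.3.3, on median spot signals.

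Named items were the 8 longest gains and losses and the 3 highest and 3 lowest among segments of 5 Mb or more, the 10 highest and 10 lowest focal segments not shared with both Balb/C lines, the 5 highest and 5 lowest shared with both, the 10 largest breakpoints, and 3 gene lists; the most informative are printed. Focal segments standing apart from both neighbours, levels, blocks and low runs were defined after seeing the data. The members and lists were chosen with earlier results of these data known. Some genes of the lists are not reported here.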

Additional observations from a re-analysis of the deposited data

How the results depend on the processing

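The altered share of Renca stayed above the mean of the other families under each alternative tried, from 12.4% with a threshold of 0.5 to 64.7% with 0.2. The exact permutation p was at the lowest value the design allows (0.0833, 0.167 within the scan batch of 6 arrays that holds Renca, and 0.0909 with Hepa1-6 and PAN02 as 1 family) and says nothing about stability, and no chromosome could pass an adjusted p of 0.05. The gained share was 7.38% with mode centring, 18.99% with normexp, 8.43% with the penalty doubled, 9.65% with it halved, 26.9% with a threshold of 0.2 and 6.54% with 0.5. The lost share was 37.9% with mode centring, 34.6% with normexp, 30.5% without probes dim in the reference DNA, 37.4% with shared probe effects subtracted, 32.3% with the penalty doubled, 28.4% with it halved, 37.7% with a threshold of 0.2 and 5.86% with 0.5. Segments numbered 227 with shared probe effects subtracted, 211 with the penalty doubled and 661 with it halved. Focal segments past the threshold numbered 71 with normexp, 58 with the penalty doubled and 270 with it halved. Those of Renca alone numbered 43 with shared probe effects subtracted, 24 with the penalty doubled, 181 with it halved and 48 with a threshold of 0.5; with normexp they were 25 gains and 28 losses, against 17 and 56. The 25 that stood apart from both neighbours numbered 18 to 42 over the alternatives. Breakpoints numbered 46 with shared probe effects subtracted, 48 with the penalty doubled, 170 with a step of 0.2 and 40 with 0.5. Bins apart from both Balb/C lines numbered 833 with mode centring, 693 with a threshold of 0.2, 200 with 0.5, 864 without CT26 and 824 without 4T1. The ratio of the lower level to the base was 0.661 with normexp and shared probe effects subtracted. The cause of these differences was not tested. The order of gains and losses turned at a threshold of 0.5, as above, and that of bins higher and lower than in both Balb/C lines, 224 and 181, turned to 143 and 690 with mode centring, 214 and 383 with normexp, 299 and 394 with a threshold of 0.2, and 422 and 442 without CT26.

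Counts of short segments depended on the penalty. Subtracting the shared effect shifts places where most other families have a high or low value in common. At chr4:111629720-112104237 Renca, CT26 and 4T1 all came to between -4.48 and -4.37, while Renca stood at -0.58 as measured. Over the measured segment that holds this stretch, chr4:109723799-112304639, the median of the other 13 arrays was 0.56, against -0.48 in Renca, -0.31 in CT26 and -0.32 in 4T1. Of its 225 probes, 33 in Renca and 31 in the reference DNA were not well above background. The cause was not tested. Signals not well above background limit deep deletions to a bound. No paired analysis was possible because each line has 1 array and the labels carry no shared replicate numbers.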
